A study of Mus musculus with 50 samples.

Results

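The genes described here are Aldh1l1 and 8 related genes for aldehyde dehydrogenases, and what was measured is the DNA methylation of their CpGs in mouse soleus, a calf muscle rich in slow fibres. A CpG was counted as a member when the promoter or gene body column of the deposited table held the Ensembl identifier of Aldh1l1 (ENSMUSG00000030088), Aldh1l2, Aldh1a1, Aldh1a2, Aldh1a3, Aldh1b1, Aldh2 (ENSMUSG00000029455), Aldh3b1 or Aldh4a1. This gave 93 of 205304 CpGs, in 26 of 51038 clusters of neighbouring CpGs. Aldh1a1 had no CpG in the table, so that 8 of the 9 genes were measured, with 10 CpGs for Aldh1l1, 7 for Aldh1l2, 19 for Aldh1a2, 17 for Aldh1a3, 15 for Aldh1b1, 18 for Aldh2, 5 for Aldh3b1 and 2 for Aldh4a1.

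Reduced representation bisulfite sequencing (RRBS) was performed on muscles of wild type (WT) and muscle-specific Dnmt3a knockout (mD3AKO, written KO in the plots) mice. Both genotypes were C57BL/6 mice of 12 weeks with Dnmt3a alleles floxed around exon 19, and mD3AKO mice carried in addition a Cre transgene driven by the promoter of muscle creatine kinase (mCK-Cre). This promoter is switched on late in the differentiation of muscle fibres, and whether satellite cells and the non-muscle cells of the soleus kept Dnmt3a was not measured in the table used here. Muscles were taken at rest after a sham run, or 10, 30 or 60 min after 30 min of treadmill exercise. The table used here held 21 WT and 23 mD3AKO muscles, of both sexes in each group. Those at rest numbered 5 of each genotype, those at 10 min again 5 of each, those at 30 min 5 WT and 7 mD3AKO, and those at 60 min 6 of each. The muscles numbered 1 to 25 came from the rest and 60 min groups, and the muscles numbered 26 to 50 from the other times. A difference between these sets of numbers and a difference between times cannot be told apart, while both genotypes were in each set. Nothing in the labels says whether samples of a group shared a litter or a day.

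DNMT3A adds methyl groups to unmethylated CpGs, and methylated CpGs near a transcription start often go with a gene that is little used. Aldehyde dehydrogenases oxidise aldehydes to acids with NAD or NADP. In the family, ALDH1L1 and its mitochondrial counterpart ALDH1L2 act on formyl-tetrahydrofolate and so on the supply of formyl groups for nucleotide synthesis, the ALDH1A enzymes make retinoic acid, ALDH2 and ALDH1B1 clear acetaldehyde in mitochondria, ALDH3B1 acts on longer fatty aldehydes and ALDH4A1 completes the breakdown of proline to glutamate.

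The sequence with the largest difference of the family in percentage points lies just before the coding form of Aldh1l1, while on the log2 scale of odds that of Aldh2 upstream of its start was larger. Coordinates are those of GRCm38 (mm10) and each sequence is written 5′ to 3′ on the strand of its gene, with the CpGs that RRBS measured in capitals and the other bases in lower case. The first is the stretch for which the study designed a pyrosequencing assay, the next are the other measured regions of Aldh1l1, and the last is the region of Aldh2 upstream of its start.
Aldh1l1, chr6:90550424-90550583, plus strand: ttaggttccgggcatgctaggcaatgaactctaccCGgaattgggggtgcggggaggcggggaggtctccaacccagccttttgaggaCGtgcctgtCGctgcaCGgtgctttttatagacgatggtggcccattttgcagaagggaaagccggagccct
Aldh1l1, chr6:90548195-90548280, plus strand: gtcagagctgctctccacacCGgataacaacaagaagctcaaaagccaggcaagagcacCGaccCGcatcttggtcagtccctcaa
Aldh1l1, chr6:90486247-90486355, plus strand: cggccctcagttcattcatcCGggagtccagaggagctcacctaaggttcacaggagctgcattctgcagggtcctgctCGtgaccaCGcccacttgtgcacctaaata
Aldh2, chr5:121594213-121594329, minus strand: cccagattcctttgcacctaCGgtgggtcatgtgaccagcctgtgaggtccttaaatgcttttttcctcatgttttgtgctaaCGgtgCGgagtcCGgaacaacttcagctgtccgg
The first sequence is 160 bases long and holds 9 CpGs, of which RRBS measured 4. All 4 lie between the sequencing primer and the reverse primer of that assay and none lies under a primer. In the reference genome these 4 CpGs belong to a cluster of 18 CpGs at most 100 bp apart, which spans 450 bp with 59.8% G and C and a ratio of observed to expected CpGs of 0.448.

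The position of this cluster depends on the transcript it is set against. The first annotated start of Aldh1l1, at position 90486427, is that of a transcript with no coding sequence, whereas the principal coding transcript starts 64362 bp further on, at 90550789. The 4 CpGs at 90550459 to 90550528 lie 330 to 261 bp upstream of that coding start and within an intron of the longer transcript. The deposited table assigns them to the gene body, and assigns to the promoter 3 CpGs at 90486267 to 90486334, which lie 160 bp or less upstream of the first start. The remaining 3 CpGs, at 90548215 to 90548259, lie in the intron between these.

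Methylation of Aldh1l1 just upstream of its coding start was lower in mD3AKO than in WT muscle. The level, which is the methylated calls as a percentage of all calls of the 4 CpGs, averaged 21.6% ± 9.97 over the 21 WT samples and 5.77% ± 4.33 over the 23 mD3AKO samples (± SD here and throughout). It was 1.06%, 22.4% and 35.4% in the lowest, median and highest WT sample and 0%, 5.03% and 15.1% in those of mD3AKO. All 23 mD3AKO samples were below the WT mean, and 15 of the 21 WT samples were above the highest mD3AKO sample. The odds of methylation differed by -2.37 on the log2 scale (SE 0.445, adjusted p = 0.00178, edgeR quasi-likelihood test with Benjamini-Hochberg adjustment over all clusters). The study picked Aldh1l1 by its methylation in these samples together with its transcript level. This p-value therefore describes the choice and is no independent evidence. The same holds for the genotype p-values of Aldh1l1 below, by time, set of samples, CpG and gene body. In whole muscle, fewer cells carrying the mark and less of it per cell cannot be told apart.

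The cluster had 97 to 817 calls per sample. The Wilson 95% interval of a single sample was 1.01 to 15.0 points wide. The sample at 0% had 258 calls, for which a limit of 3 divided by the calls is 1.16% and the Wilson upper limit 1.47%. These calls are reads copied by PCR without molecular identifiers, so intervals and limits cover counting error only.

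Each time after exercise was then examined separately at this cluster. At rest the WT samples had 1.06%, 10.9%, 21.4%, 27.7% and 35.1% and the mD3AKO samples had 0%, 6.94%, 11.3%, 12.5% and 12.8%. The groups overlapped at rest, because 2 of the WT samples were lower than several mD3AKO samples. At 10 min the WT samples had 15.1%, 22.4%, 26.1%, 34.9% and 35.4% and the mD3AKO samples had 0.185%, 2.77%, 3.12%, 7.08% and 10.6%, with no overlap. At 30 min the WT samples had 15.1%, 23.9%, 26.9%, 31.3% and 34.1%, and the 7 mD3AKO samples had 1.57%, 4.55% and 15.1% as the lowest, median and highest value. The lowest WT and the highest mD3AKO sample at 30 min were separated only in the second decimal. At 60 min the lowest, median and highest values were 5.85%, 14.2% and 27.8% in 6 WT samples and 0.855%, 4.56% and 8.96% in 6 mD3AKO samples, and the lowest WT sample was within the range of mD3AKO.

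**Figure D1:**
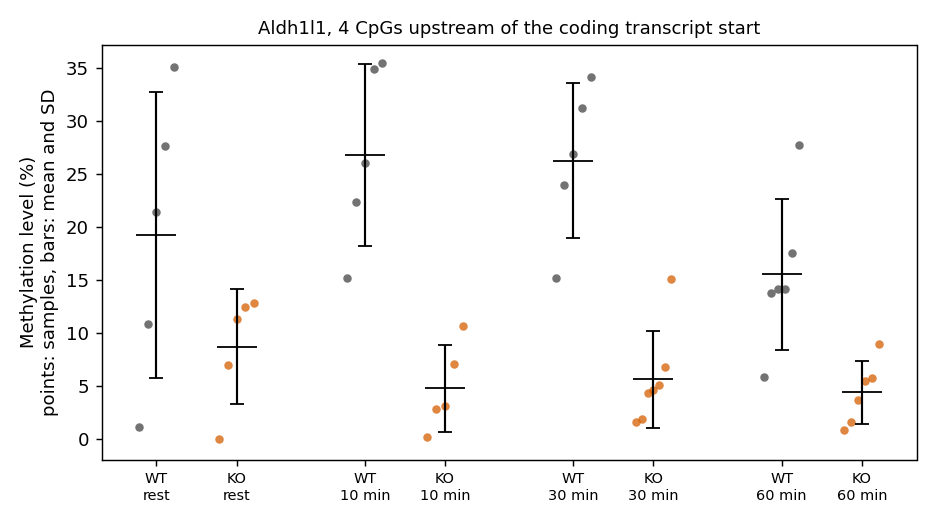
Methylation level in percent (vertical axis) of the 4 CpGs of Aldh1l1 upstream of the coding start, for each genotype and time. Each point is a muscle, the horizontal line is the group mean and the bars are the SD. The mD3AKO means lie between 4.37% and 8.70% and the WT means between 15.5% and 26.8%.

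The mD3AKO mean was below the WT mean by a difference of -10.5 points in the resting groups, and of -22.0, -20.7 and -11.2 points at 10, 30 and 60 min. Exact two-sided permutation tests adjusted over the 4 times gave p = 0.159, 0.0106, 0.00505 and 0.00866, in that order. These p-values describe the samples on which Aldh1l1 was picked and are no independent evidence. Among all clusters, the share with every mD3AKO sample below every WT sample was 0.774% for rest and 0.768%, 0.711% and 0.451% for 10, 30 and 60 min. The result at rest moved with single libraries. Without WT replicate 13, the sample at 1.06%, the difference was -15.1 points (exact permutation p = 0.0317, adjusted over the 4 times), and without WT replicate 1, the sample at 35.1%, it was -6.56 points (exact permutation p = 0.317, adjusted in the same way). Fitted at rest alone in the quasi-binomial model, a logistic model of the calls, the log2 odds ratio was -0.82 with an adjusted p of 0.839. In samples numbered 1 to 25 it was -1.42 (adjusted p = 0.194) and in samples numbered 26 to 50 it was -2.83 (adjusted p = 0.000457), both from the same model.

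No change with exercise was detected at the cluster. Against rest, the WT mean was 7.56 points higher at 10 min, 7.04 points higher at 30 min and differed by -3.69 points at 60 min. In mD3AKO the differences from rest were -3.95, -3.11 and -4.33 points. The exact permutation p-values adjusted over these 6 comparisons were 0.40 for 5 of them and 0.569 for WT at 60 min. In the edgeR quasi-likelihood test over all clusters the unadjusted p was 0.710 for time and 0.428 for the genotype by time interaction, with adjusted p-values of 1 for both. The quasi-binomial model gave an unadjusted p of 0.0411 for the interaction, with an adjusted p of 0.962. In edgeR the log2 odds ratios of a time with rest had SEs of 0.874 to 0.966. A change of 1 log2 unit could thus have been missed.

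The 4 CpGs were also examined singly, and all of them were lower in mD3AKO. In the order of the sequence, the level was 18.8% ± 15.3 in WT and 5.86% ± 6.55 in mD3AKO at 90550459, 11.4% ± 9.53 and 1.96% ± 6.18 at 90550512, 33.7% ± 14.9 and 11.4% ± 9.32 at 90550521, and 20.8% ± 13.9 and 3.73% ± 5.13 at 90550528 (SD, n = 21 and 23). The CpG at 90550521 thus kept the highest level of the 4 in both genotypes. The log2 odds ratio was -2.07, -4.13, -2.36 and -3.38 in the same order. The last 3 CpGs passed the test over all CpGs (edgeR adjusted p = 0.00109, 0.0446 and 0.00591), against 0.287% of all CpGs, and they were the only 3 of the 93 member CpGs that did. The first, with as few as 8 calls in a sample, had an adjusted p of 0.369.

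**Figure D2:**
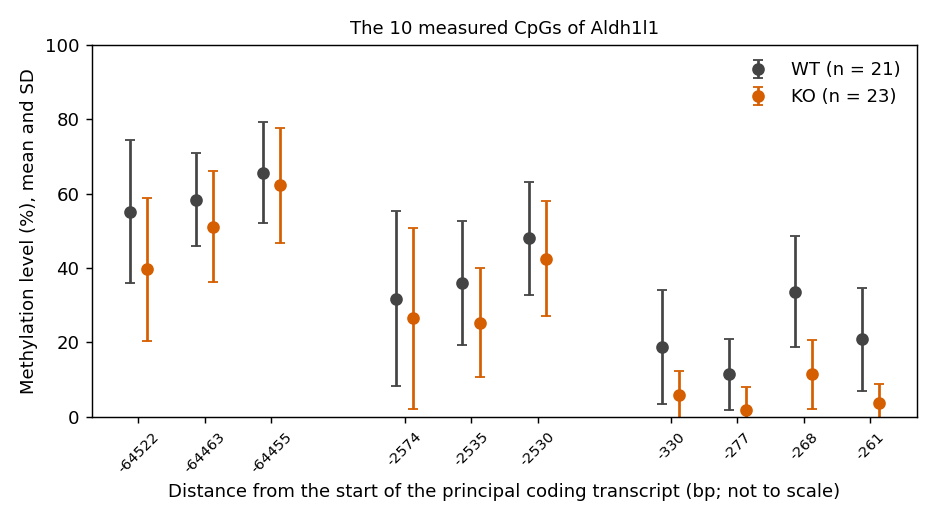
Methylation level in percent (vertical axis, mean and SD over samples) of the 10 measured CpGs of Aldh1l1 in WT (grey, n = 21) and mD3AKO (orange, n = 23), ordered by distance in bp from the start of the principal coding transcript (horizontal axis, evenly spaced). The means are lower in mD3AKO at all 10 CpGs, and the SD bars of the genotypes overlap at all of them.

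Elsewhere in Aldh1l1 the genotypes differed less than the samples did. At the 3 intronic CpGs, 2574 to 2530 bp before the coding start, the level was 39.4% ± 13.5 in WT and 31.6% ± 11.1 in mD3AKO (log2 odds ratio -0.51, SE 0.281, edgeR adjusted p = 0.602). At the 3 CpGs by the first annotated start it was 60.2% ± 9.77 and 53.6% ± 9.59 (log2 odds ratio -0.40, SE 0.209, edgeR adjusted p = 0.574). Summed as the deposited table assigns them, the Aldh1l1 promoter held only the latter and had an adjusted p of 0.779, while the gene body, which held the other 7 CpGs, had 31.2% ± 7.13 in WT and 18.5% ± 7.25 in mD3AKO (adjusted p = 0.00176). It was the only one of 7 member gene bodies that passed, where 1.42% of all gene bodies did, 1.4% being lower in mD3AKO.

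Neither sex nor its combination with genotype passed the test at any member cluster, the lowest adjusted p-values being 0.662 and 0.880 in the quasi-binomial model. The latter was at the intronic Aldh1l1 cluster (unadjusted p = 0.0489). Females there had 33.0% ± 10.6 in WT and 34.2% ± 10.5 in mD3AKO, and males 45.2% ± 13.5 and 29.3% ± 11.5. At the Aldh1l1 cluster before the coding start, WT females had 23.7% ± 9.32 (n = 10), WT males 19.8% ± 10.6 (n = 11), mD3AKO females 5.80% ± 3.72 (n = 11) and mD3AKO males 5.74% ± 5.00 (n = 12). The share of all clusters that passed for sex in this model was 0.00588%.

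Aldh2, the gene of the mitochondrial enzyme that clears acetaldehyde, held the other of the 2 member clusters that passed, where 1.09% of all clusters did. Its 4 CpGs lie at chr5:121594233-121594308, 409 to 484 bp upstream of the annotated start, and belong to a cluster of 15 CpGs in the reference genome. At rest the WT samples had 1.31%, 3.99%, 8.33%, 10.5% and 13.3%, and the mD3AKO samples had 0%, 0%, 0%, 0.281% and 14.4%. At 10 min WT had 0%, 1.10%, 3.36%, 6.12% and 8.42%, and mD3AKO had 0%, 0%, 0%, 0.225% and 1.03%. All but 1 of these mD3AKO samples were near 0, and the exception, replicate 2 at rest, was the highest of all 44 samples. The 30 min values were 0%, 0.439%, 2.94%, 5.22% and 7.27% in WT, and 0%, 0.101% and 7.49% as the lowest, median and highest of 7 mD3AKO samples. At 60 min the lowest, median and highest were 0%, 4.49% and 14.1% in WT and 0%, 0.346% and 2.41% in mD3AKO. The genotypes overlapped at every time, with 3 WT and 12 mD3AKO samples at 0%. These had 111 to 790 calls, for which 3 divided by the calls gives limits of 2.70% and 0.380%.

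Over all times the Aldh2 level averaged 5.06% ± 4.20 over WT and 1.57% ± 3.35 over mD3AKO samples, with 21 of the 23 mD3AKO samples below the WT mean. The log2 odds ratio was -3.0 (SE 0.765, edgeR adjusted p = 0.0352). The call depended on the model, since the quasi-binomial model gave -2.24 with an adjusted p of 0.0798, while the likelihood ratio test gave 0.00174 and limma 0.00538. In the quasi-binomial model it was past the threshold without mD3AKO replicate 33 at 30 min (adjusted p = 0.0480). Without mD3AKO replicate 2 at rest the log2 odds ratio was -3.42 (adjusted p = 0.0632). Leaving out other single samples gave adjusted p-values up to 0.311, and sex as a term gave 0.103. Of the 4 CpGs, the one at 121594233, nearest to the start, had 8.51% ± 10.7 in WT and 0.989% ± 3.26 in mD3AKO (edgeR adjusted p = 0.0730).

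Downstream of the Aldh2 start, 3 neighbouring clusters in the first 1259 bp of the gene were also lower on average, and none passed alone. Their levels in WT and mD3AKO were 15.5% ± 7.13 and 11.0% ± 6.30 (edgeR adjusted p = 0.595), 20.2% ± 13.2 and 11.5% ± 10.7 (adjusted p = 0.549), and 25.3% ± 12.8 and 20.2% ± 11.7 (adjusted p = 0.824), going away from the start. When CpGs up to 200 bp apart were joined, the 12 CpGs on both sides of the start became 1 cluster with 16.5% ± 5.72 in WT and 10.2% ± 4.31 in mD3AKO, which passed in the quasi-binomial model (log2 odds ratio -0.75, adjusted p = 0.0176). The deposited Aldh2 promoter, with 7 of these CpGs, had 10.2% ± 3.89 and 5.26% ± 3.10. It did not pass in the edgeR quasi-likelihood test (adjusted p = 0.189). None of the 7 member promoters did, where 0.789% of all promoters passed. The Aldh2 promoter passed in the likelihood ratio test (adjusted p = 0.0165) and in the quasi-binomial model (adjusted p = 0.00835). The share of all promoters that passed in these 2 is not given here. Over all clusters they called 2.77% and 2.54%, against 1.09% in the edgeR quasi-likelihood test. Further into the gene, a CpG 9790 bp from the start had 8.37% ± 13.5 and 2.52% ± 6.29 (adjusted p = 0.271), and a coding exon of 2 measured CpGs had 86.3% ± 12.1 and 75.6% ± 18.9 (adjusted p = 0.637). The summed gene body of Aldh2 had 42.5% ± 8.86 and 41.3% ± 6.85 (adjusted p = 1).

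**Figure D3:**
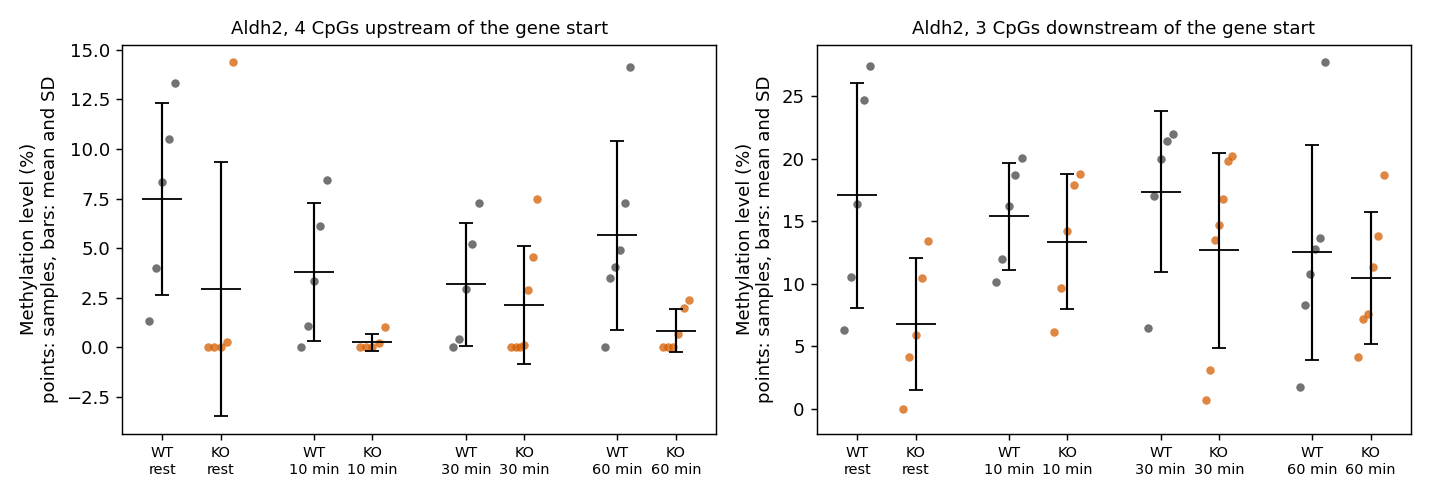
Methylation level in percent (vertical axes, different ranges) of the 4 CpGs upstream of the Aldh2 start (left) and of 3 CpGs downstream of it (right), for each genotype and time. Each point is a muscle, the line is the mean and the bars are the SD, which reach below 0 where values are skewed. On the left 12 of 23 mD3AKO samples lie at 0% and 1 lies at 14.4%.

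Aldh1l2, the mitochondrial counterpart of Aldh1l1, did not pass the test at any of its 3 clusters. The 5 CpGs by its start, in untranslated exon or intron sequence, were almost unmethylated. Their level was 0.769% ± 1.23 in WT and 0.711% ± 1.56 in mD3AKO. Its largest difference was at 1 CpG of a coding exon (chr10:83516167), with 89.7% ± 6.66 and 84.1% ± 8.59 (log2 odds ratio -0.82, edgeR adjusted p = 0.421).

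The retinaldehyde dehydrogenase genes were measured mostly at their starts. The 18 CpGs of Aldh1a2 from 593 bp upstream into the first intron, in a stretch of 179 CpGs of the genome, had 7.90% ± 3.48 in WT and 7.25% ± 3.13 in mD3AKO (edgeR adjusted p = 0.976). A CpG in a distant intron of Aldh1a2 had 49.5% ± 15.0 and 43.0% ± 16.4 (adjusted p = 0.805). At Aldh1a3 the 10 CpGs upstream of the start had 0.735% ± 0.940 and 0.569% ± 1.02 (adjusted p = 0.937), while 4 clusters in the gene had WT means of 54.0% to 98.3%. The lowest p among these was at 2 intronic CpGs with 98.3% ± 3.74 and 95.7% ± 6.99 (adjusted p = 0.662). The Aldh1a3 cluster in a coding exon was 1 of the 3 member clusters with a higher mean in mD3AKO, with 54.0% ± 18.5 and 55.6% ± 17.0 (adjusted p = 0.980).

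The remaining genes were either nearly unmethylated at their starts or measured only within the gene. Aldh1b1, for another mitochondrial acetaldehyde dehydrogenase, had 0.819% ± 0.738 and 0.523% ± 0.727 at 11 CpGs across its start (edgeR adjusted p = 0.651) and 93.5% ± 6.74 and 91.8% ± 9.00 at 4 CpGs of its coding exon (adjusted p = 0.934). Both of its clusters had a lower mean in mD3AKO, yet the summed gene body had 19.4% ± 11.3 in WT and 24.2% ± 9.63 in mD3AKO (adjusted p = 0.637), since pooled calls weight the 2 clusters by their coverage in each sample. Aldh3b1, for the enzyme acting on fatty aldehydes, had 46.6% ± 10.0 and 41.9% ± 13.5 at 4 intronic CpGs (adjusted p = 0.855) and 85.4% ± 14.2 and 81.7% ± 18.8 at 1 CpG nearer to its start (adjusted p = 0.988). Aldh4a1, for the enzyme that makes glutamate from a proline breakdown product, had 0.0535% ± 0.245 and 0.178% ± 0.380 at 2 CpGs (adjusted p = 0.406). These 2 CpGs are also assigned to another gene in the table, and levels this low rest on at most 3 methylated calls in a sample.

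Over the family, 2 of 26 clusters passed the genotype test, both lower in mD3AKO, where 1.09% of all clusters passed. At an unadjusted p under 0.05 there were 5 of 26, against 9.56% of all clusters. Among these 5 was Aldh4a1, with a higher mean in mD3AKO that rests on at most 3 methylated calls in a sample. The mean was lower in mD3AKO in 23 of the 26 clusters, against 62.4% of all clusters. The median difference was -3.62 points over the members and -0.455 over all clusters. It was -2.74 over the 23 clusters of genes other than Aldh1l1. In the 10 member clusters with a WT level of 5 to 50% the median was -5.49 points and all 10 were lower, where all such clusters had a median of -1.93 and were lower in 68.5%. In the 4 with a WT level under 5% the median was -0.112 points. Every mD3AKO sample was below the WT mean only at the Aldh1l1 cluster before the coding start, 1 of 26, as at 0.794% of all clusters. The study chose Aldh1l1 on these samples and clusters of a gene are neighbours, so these counts describe the family and are no independent evidence of a direction.

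**Figure D4:**
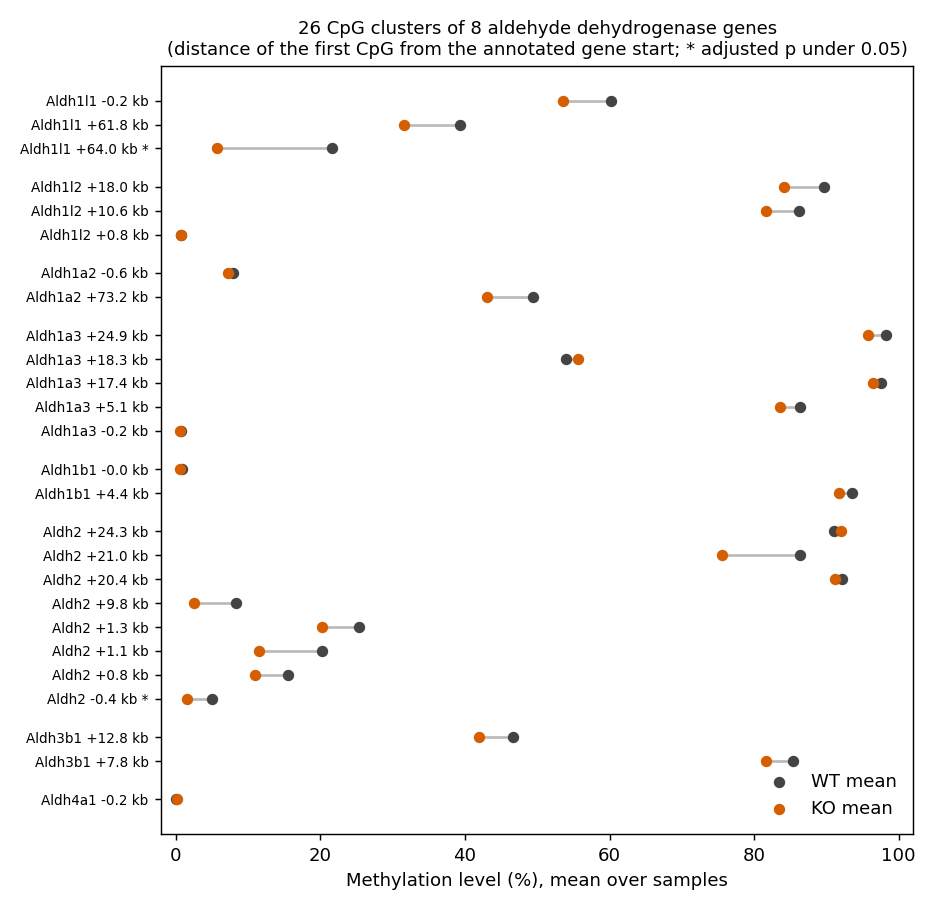
Mean methylation level in percent (horizontal axis) of each of the 26 member clusters in WT (grey, n = 21) and mD3AKO (orange, n = 23). Rows give the gene and the distance in kb of the cluster from the annotated gene start, and an asterisk marks the 2 clusters past the threshold. Clusters by the starts of Aldh1l2, Aldh1a3, Aldh1b1 and Aldh4a1 lie under 1% in both genotypes.

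No change with exercise was detected at any member cluster. For time and for genotype by time 0 of 26 clusters passed in edgeR and in the quasi-binomial model, and 0% of all clusters passed. At an unadjusted p under 0.05 in edgeR there were 0 of 26 for either, against 2.86% of all clusters for time and 2.74% for the interaction. Among 6 contrasts of a time with rest within a genotype, the members had 0 to 2 clusters at an unadjusted p under 0.05, where 2.80% to 4.29% of all clusters were under it. The lowest was 0.0295, at the intronic Aldh2 CpG 9790 bp from the start in mD3AKO at 60 min.

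Of genes that act beside the family, a called cluster was found in the retinoid list only. Rara, which encodes a receptor for the retinoic acid that ALDH1A enzymes make, had 2 called clusters in its gene body, both lower in mD3AKO. At chr11:98936543-98937755 the level was 4.13% ± 2.95 in WT and 0.797% ± 0.661 in mD3AKO (log2 odds ratio -2.66, edgeR adjusted p = 0.00257), and at chr11:98959620-98961000 it was 5.60% ± 2.55 and 1.41% ± 1.16 (log2 odds ratio -2.33, edgeR adjusted p = 0.00182). In both, 23 of 23 mD3AKO samples were below the WT mean, as at 0.794% of all clusters. The 2 clusters were named because they passed, so this goes with the choice. These were 2 of the 42 clusters of the retinoid list (20 of 25 genes measured), and the list had 31 clusters with a lower mean and a median difference of -1.14 points. Over all clusters 1.09% passed in edgeR, 9.56% had an unadjusted p under 0.05 and 62.4% had a lower mean. The quasi-binomial model called 7 of these 42 clusters, where it called 2.54% of all. In edgeR 0 of 40 clusters of folate metabolism passed (5 at an unadjusted p under 0.05, 1 called in the quasi-binomial model), 0 of 14 of other aldehyde dehydrogenases (1 unadjusted), 0 of 7 of ethanol and acetaldehyde metabolism (0 unadjusted) and 0 of 10 of proline and glutamate metabolism (1 unadjusted). Their median differences were -0.253, -0.109, 0.0182 and -0.393 points.

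The clusters of other genes whose level followed that of the Aldh1l1 cluster most closely over the 44 samples lay in Cables1, Pnma1, Slc9a4, Zhx2 and Synj2. Spearman's rho with Aldh1l1 was 0.787, 0.771, 0.766, 0.747 and 0.736, the highest among 30751 clusters with a gene. All 5 were themselves lower in mD3AKO, with levels of 4.87% ± 2.08 and 1.88% ± 1.09 for Cables1 and 76.5% ± 7.12 and 53.9% ± 10.0 for Slc9a4. With levels centred on the 8 group means, rho was 0.477, 0.537, 0.413, 0.427 and 0.377. The 5 were picked for following a cluster that itself differs between genotypes, so their lower level in mD3AKO goes with the choice. The samples also share their library across all clusters, so rho is a description.

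Markers of the cell types of muscle were set beside these results. Satellite cell markers were measured only at Pax7, whose 10 clusters were all lower on average in mD3AKO and of which 4 passed, a gene that the study also picked on these samples. Fibre markers had 6 of 14 clusters with a lower mean and 0 called, endothelial markers 8 of 15 and 0, fibro-adipogenic markers 3 of 3 and 0, immune markers 1 of 2 and 1 (Lyl1), adipocyte markers 1 of 2 and 0, and Schwann cell markers 6 of 9 and 0. Over all clusters 62.4% had a lower mean and 1.09% passed. The share of each cell type in these muscles was not measured, and its part in the result at Aldh1l1 was not tested.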

How the data were processed

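RRBS libraries were made by MspI digestion and sequenced as single-end reads by the authors, who trimmed them with Trim Galore 0.4.0 and cutadapt 1.9.1, aligned them to mm10 with Bismark 0.18.1, summed both strands and left out CpGs under 8 reads in any sample and those off the autosomes. The deposited table gives counts per CpG and sample, of methylated and of unmethylated calls, not normalized, with the authors' assignment to clusters (gaps up to 100 bp), promoters (3000 bp upstream to 1000 bp downstream) and gene bodies. Libraries had 12819404 to 41285655 calls. Of the 50 samples 44 were used, and 6 were not used here.

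Counts were summed per cluster, promoter and gene body and tested over all of them with the quasi-likelihood F test of edgeR 4.0.16 (R 4.3.3), with a coefficient per sample, a methylation mean for each of the 8 groups and no dispersion trend. For single CpGs the common dispersion came from every 10th CpG. The genotype effect is the mean of the mD3AKO groups minus that of the WT groups, as a log2 ratio of odds, and p-values were adjusted by Benjamini-Hochberg, with a threshold of 0.05. Alternatives were the edgeR likelihood ratio test, limma 3.58.1 (pseudocount 1) and a quasi-binomial logistic model (pseudocount 0.5), with other coverage minimums, gaps and samples in the last. In data simulated for the genotype comparison on 5104 clusters, edgeR recovered 63% of clusters changed by 1 log2 unit and 99% of those changed by 2, with 2.41% false calls, and the quasi-binomial model 69%, 96% and 10.3%. Gene positions came from GENCODE M21 of GRCm38.

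The members and all gene lists were chosen with earlier results of these data known. Named were all 9 members, every cluster and CpG of Aldh1l1, for each other gene the cluster nearest to its start, the one with the lowest genotype p and any called, genes of the lists with a called cluster, and the 5 clusters most like Aldh1l1. Other Aldh2 and member clusters outside this rule were named after their values were seen. P-values set a difference against the spread between these samples.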

Additional observations from a re-analysis of the deposited data

Results flagged for a closer look

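In 109 groups of samples at 14 named clusters, 25 single samples stood far from the rest of their group by Dixon's test at 95%, where chance flags about 1 in 20 groups, or 5.45 here. Many are at levels near 0 or 100%, where a few calls set the gap. At the Aldh1l1 cluster before the coding start, mD3AKO replicate 27 at 30 min had 15.1% against 1.57 to 6.72% in the others, and the same sample had 59.2% against 25.2 to 38.3% at the intronic Aldh1l1 cluster. At the Aldh1l1 cluster by the first start, WT replicate 42 at 10 min had 39.9% (others 54.6 to 57.8%) and WT replicate 13 at rest had 52.4% (others 64.4 to 68.9%). Replicate 13 also had the lowest WT level before the coding start.

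At the Aldh2 cluster upstream of the start, mD3AKO replicate 2 at rest had 14.4% against 0 to 0.281% in the others, and mD3AKO replicate 34 at 10 min had 1.03% against 0 to 0.225%. At Aldh1l2, mD3AKO replicate 48 at 30 min had 59.6% at the exonic CpG (others 79.5 to 90.8%), and by the start mD3AKO replicate 45 at 10 min had 7.10%, mD3AKO replicate 36 at 30 min had 2.38% and WT replicate 20 at rest had 3.10%, all above the rest of their groups. At the Aldh1a2 start mD3AKO replicate 48 at 30 min had 14.0% (others 4.25 to 7.54%).

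At the intronic Aldh1a3 CpGs the samples set apart were mD3AKO replicate 29 at 30 min (92.4%), mD3AKO replicate 8 at rest (93.8%), WT replicate 47 at 10 min (98.8%), WT replicate 18 at 60 min (93.7%) and WT replicate 1 at rest (95.5%), all below others at 99.1 to 100%. At the Aldh1a3 start they were mD3AKO replicate 48 at 30 min (2.16%), mD3AKO replicate 6 at 60 min (4.51%) and WT replicate 31 at 30 min (0.524%). At the Aldh1b1 start mD3AKO replicate 8 at rest had 0.657%. At Aldh3b1 WT replicate 38 at 30 min had 31.5% against 49.5 to 54.7%. At Aldh4a1, where all others of each group were at 0%, mD3AKO replicate 45 at 10 min had 0.508%, mD3AKO replicate 36 at 30 min 0.495%, mD3AKO replicate 12 at rest 1.34% and WT replicate 47 at 10 min 1.12%.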

How the results depend on the processing

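The Aldh1l1 genotype effect kept its direction under every alternative run and its call under all but 2, both of which used the groups at rest with at most those at 60 min. With all samples it ranged from -2.42 to -2.12 over the models, and in the quasi-binomial model from -2.23 to -2.03 when each sample was left out. In that model samples 1 to 25 gave -1.42 (adjusted p = 0.194) and rest alone -0.82 (adjusted p = 0.839), and each called 0 member clusters, while samples 26 to 50 gave -2.83 (adjusted p = 0.000457). The model called 1 of 26 member clusters, where it called 2.54% of all, against 2 in edgeR, where 1.09% of all passed. The difference was Aldh2 upstream of its start, at -2.24 (adjusted p = 0.0798) in the model. With gaps of 200 bp the model called 2 of 22 member clusters, and 1 to 2 when each sample was left out. The shares of all clusters called in these last fits are not given here. For Aldh2 the fits that left out a sample gave -3.42 to -2.02, with adjusted p-values up to 0.311. It was past the threshold without mD3AKO replicate 33 at 30 min (-2.41, adjusted p = 0.0480). With sex as a term the Aldh2 effect was -2.21 (adjusted p = 0.103). Samples 1 to 25 gave -1.93 (adjusted p = 0.427) and samples 26 to 50 gave -2.56 (adjusted p = 0.416). The Aldh1l1 difference at rest was -15.1 to -6.56 points when each sample was left out.

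Member promoters called numbered 1 in the likelihood ratio test and 1 in the quasi-binomial model, against 0 in the edgeR quasi-likelihood test. The share of all promoters that passed in the first 2 is not given here. Over all clusters they called 2.77% and 2.54%, against 1.09%. The quasi-binomial model called 1 folate cluster and 7 retinoid clusters, against 0 and 2, and 0 folate clusters at a coverage minimum of 20. Uncalled effects changed sign at Aldh1l2 by the start (1.16 in samples 26 to 50, 0.15 without WT replicate 20 at rest), Aldh3b1 (0.26 in samples 26 to 50, 0.021 without mD3AKO replicate 3 at 60 min, 0.061 without mD3AKO replicate 36 at 30 min) and Aldh4a1 (-0.14 in samples 26 to 50). For all of these changes the cause was not tested. The median difference over member clusters was -4.69 to -1.91 points. No paired analysis was possible because each sample number belongs to 1 sample of the series and the groups share none. At a coverage minimum of 20 only 13 of the 26 member clusters were left, and the Aldh2 cluster upstream of its start was not among them. Depth thus limits what can be said of those lost.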
